A study of Homo sapiens with 16 samples.

Results

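The genes described here are 60 listed genes of human chromosome 20, of which 21, in chromosome order CSNK2A1 to NXT1, lie on the short arm and 39, TM9SF4 to RTEL1, on the long arm. The arrays gave a value for 18417 genes in all. The list goes by the genes' place on the chromosome, but its genes were chosen by a rule written with their RPMI8226 and U266 HR minus parental differences in view, so the values of those lines are given as a description. Of the 60 genes, 55 had a probe set with a single gene symbol, 18 of the short arm and 37 of the long arm, and each of the 55 was brighter than 6.27, the median of all log2 values of the table, in all 16 arrays. CSNK2A1, UBOX5 and RTEL1 were represented only by probe sets that carry several symbols, CRNKL1 and NCOA3 had no row in the platform table, and these 5 were not analysed here. The RefSeq gene table places the 55 on chromosome 20.

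Transcripts of 4 human B-lineage lines, labelled as derived from multiple myeloma (a plasma cell cancer), were measured on Affymetrix arrays. RPMI8226-HR, U266-HR, KMS-11-HR and IM-9-HR are hypoxia-resistant (HR) sublines kept for 24 hours at 1% oxygen. Parental RPMI8226, U266, KMS-11 and IM-9 cells were kept for 24 hours at 20% oxygen. Each of the 8 groups had 2 arrays. No HR cells were measured at 20% oxygen and no parental cells at 1%, so resistance and the oxygen level cannot be told apart in any difference below. How the HR sublines were derived, and whether any was a single clone, is not given in the sources used here. The labels do not tell whether both arrays of a group stem from different cultures. All p-values therefore rest on the spread between arrays, which may be technical. DNA copy number was not among the measurements.

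The arrays had medians between 6.22 and 6.34 (log2), arrays of a group correlated at r of 0.993 to 0.996 across probe sets and arrays of different lines at 0.915 to 0.948, and 0 pairs held identical values. Plasma cell markers were present in every group, with 7 or 8 of 10 above 6.27, among them JCHAIN, XBP1, IRF4 and PRDM1 in all 16 arrays. CD38 was above it in 4 arrays, those of RPMI8226, SLAMF7 in 8 arrays and CD27 in 1. Of 7 measured B cell markers, 6 in IM-9-HR and 7 in parental IM-9 cells were above that level, against 2 to 4 in the groups of the other lines. IM-9 carries a myeloma label and is widely described elsewhere as a B lymphoblastoid line. Of the T and NK cell markers 1 or 2 of 6 were above it, CD7 in all 16 arrays, and of the stromal markers 1 or 2 of 6, COL1A1 in all 16. NCAM1 of the T and NK cell list was above it in 8 arrays and GNLY in 3. The mean of NCAM1 was 8.34 in RPMI8226-HR and 9.83 in parental RPMI8226, and 6.46 in U266-HR and 7.63 in parental U266. Of the stromal list, COL3A1 was above it in 4 arrays and COL1A2 in 1. The T cell genes CD3D, CD3E and CD2, all 5 myeloid markers and the stromal genes DCN, LUM and PDGFRB were below 6.27 in every array.

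Chromosome 20 is one of the small human autosomes, and a centromere divides it into a short and a long arm. Genes on an arm seldom share a function, and the listed genes serve membrane traffic, RNA processing, chromatin, signalling and small-molecule enzymes. Gain or loss of a whole arm is a frequent change in cancer cell lines in general, and it is known to alter the transcript levels of many genes of that arm together.

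In RPMI8226, HR cells had lower levels than parental cells over both arms. The difference of HR minus parental, on the log2 scale of the deposited intensities, had a median of −0.32 over the 18 short-arm genes (0.801 of the parental level) and of −0.28 over the 37 long-arm genes (0.824 of it), while the median over all 12639 tested genes was −0.01. It was below 0 for 17 of the 18 short-arm and 31 of the 37 long-arm genes. Over the 4 pairs of 1 HR and 1 parental array, the short-arm median ran between −0.34 and −0.29 and the long-arm median between −0.28 and −0.25. In U266 the arms went apart. The difference was below 0 for 18 of 18 short-arm genes, with a median of −0.46 (0.725 of the parental level), and above 0 for 37 of 37 long-arm genes, with a median of 0.25 (1.19 times the parental level), against −0.01 over all tested genes. The U266 medians ran between −0.47 and −0.45 for the short arm and between 0.24 and 0.29 for the long arm over the array pairs. The highest short-arm difference in U266 was −0.13, of PRNP, the prion protein gene, and the lowest long-arm difference was 0.11, of DPM1, a subunit of dolichol-phosphate mannose synthase, so the arms did not overlap there. Their medians lay 0.72 apart in U266 and 0.04 apart in RPMI8226.

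**Figure D1:**
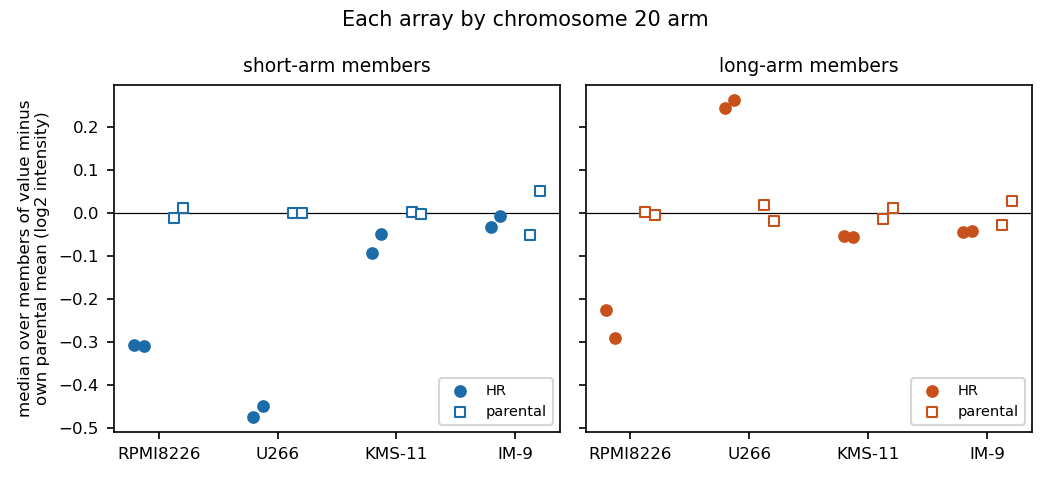
Each point is 1 array: the median over the 18 short-arm genes (left panel) or 37 long-arm genes (right panel) of the array's log2 intensity minus the gene's mean in the 2 parental arrays of the line. Filled circles are HR arrays and open squares parental arrays of RPMI8226, U266, KMS-11 and IM-9. Both RPMI8226-HR arrays lie below 0 in both panels, and both U266-HR arrays lie below 0 for the short arm and above 0 for the long arm.

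In KMS-11 and IM-9 the arm medians lay close to the median of all tested genes. In KMS-11 the median difference was −0.07 over the short-arm genes and −0.06 over the long-arm genes, with −0.02 over all tested genes. In IM-9 it was −0.01 over the short-arm and −0.07 over the long-arm genes, with −0.06 over all tested genes. Over the array pairs the KMS-11 medians ran between −0.09 and −0.03 for the short arm and between −0.06 and −0.04 for the long arm. The IM-9 medians ran between −0.11 and 0.03 for the short arm and between −0.11 and −0.01 for the long arm.

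Counts of calls say how many genes passed the threshold of an adjusted p of 0.05 in limma, with Benjamini-Hochberg adjustment over all tested genes. In RPMI8226, 11 short-arm genes were called lower and 1 higher, and 24 long-arm genes were called lower and 0 higher, where 15.3% of all tested genes were called lower and 10.7% higher. Both arrays of RPMI8226-HR lay below both parental arrays for 15 short-arm and 28 long-arm genes and above them for 1 and 4, and 32.1% of all tested genes were separated downward and 25.6% upward. In U266, 14 short-arm genes were called lower and 21 long-arm genes higher, with 0 called in the opposite direction on either arm, where 8.42% of all tested genes were called lower and 9.68% higher. All 18 short-arm genes were separated downward in U266 and all 37 long-arm genes upward, where 32.8% of all tested genes were separated downward and 29.2% upward. Since the list was drawn up with the values of these 2 lines known, these counts describe it and test nothing.

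Along the chromosome, the U266 difference changed sign near the centromere. The 356 tested genes of chromosome 20 were taken in RefSeq order, 97 of them up to NXT1, 31 between NXT1 and TM9SF4 and 228 from TM9SF4 on. The largest step between the medians of the 20 genes before and the 20 genes after a point lay between GGTLC1 and SYNDIG1 in U266, with −0.35 before and 0.05 after. Both of these genes lie between NXT1 and TM9SF4. In blocks of 20 genes, the first 5 blocks of U266 had medians between −0.46 and −0.16, the next one, CST4 to HM13, had −0.06, and the remaining 12 lay between 0.07 and 0.29. RPMI8226 had a median below 0 in all 18 blocks, between −0.33 (RNF114 to AURKA) and −0.07. Its largest step lay between CENPB and CDC25B on the short arm, with −0.09 before and −0.34 after, so ATRN was the last listed gene before it and PRNP the first after it. The largest step of KMS-11 lay between ADA and CCN5, with −0.18 before and 0.01 after, SRSF6 and YWHAB being the listed genes on its sides. That of IM-9 lay between RRBP1 and SNX5, with 0.07 before and −0.14 after. Their block medians lay within −0.07 and 0.06 in KMS-11 and within −0.19 and 0.05 in IM-9.

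**Figure D2:**
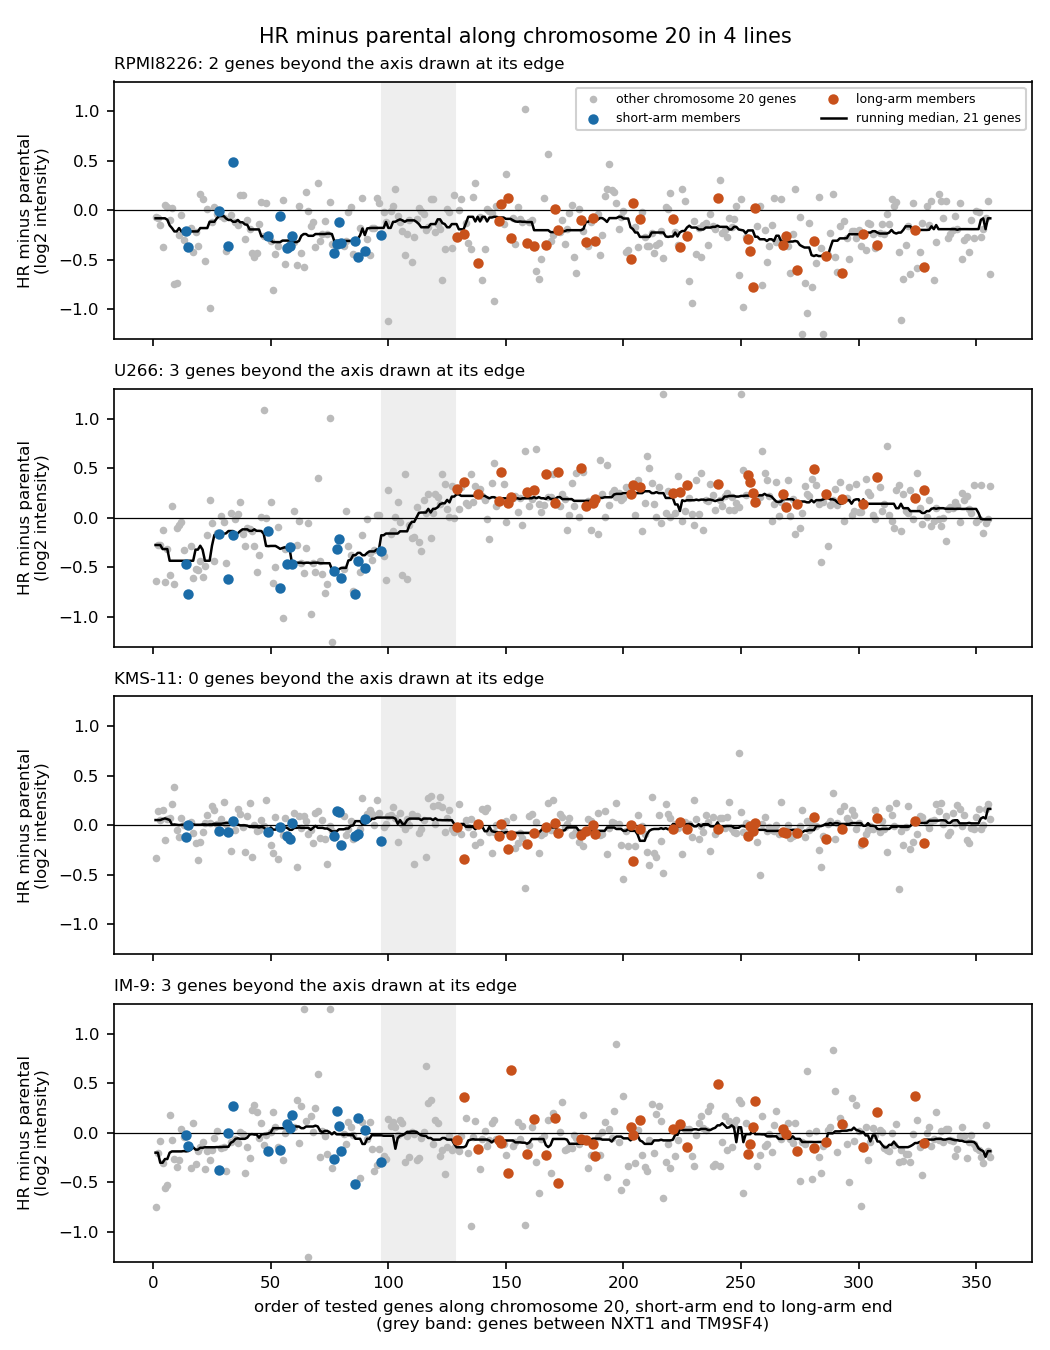
Each point is 1 of the 356 tested genes of chromosome 20, placed by its order along the chromosome, with the HR minus parental difference (log2 intensity) on the vertical axis, for RPMI8226, U266, KMS-11 and IM-9. Blue points are the 18 short-arm and orange points the 37 long-arm genes of the list, grey points other genes, the line a running median of 21 genes, and the grey band the genes between NXT1 and TM9SF4. The U266 line crosses 0 within the band, and the RPMI8226 line stays below 0.

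NXT1, a cofactor of messenger RNA export, and TM9SF4, a transmembrane protein of the endomembrane system, are the listed genes on either side of the centromere. NXT1 had 6.95 and 6.84 in U266-HR arrays, against 7.28 and 7.19 in parental U266 arrays. TM9SF4 had 10.09 and 10.10 in U266-HR arrays, against 9.83 and 9.78 in parental U266 arrays. The HR arrays thus lay below the parental arrays for NXT1 and above them for TM9SF4, with no overlap for either gene. In RPMI8226 both genes were lower in HR cells. NXT1 had 7.86 and 7.74 in RPMI8226-HR arrays, against 8.09 and 8.01 in parental RPMI8226 arrays, and TM9SF4 had 9.59 and 9.64 in RPMI8226-HR arrays, against 9.89 and 9.88 in parental ones. The differences of HR minus parental were −0.34 ± 0.09 in U266 and −0.25 ± 0.09 in RPMI8226 for NXT1, and 0.29 ± 0.06 in U266 and −0.27 ± 0.06 in RPMI8226 for TM9SF4 (SE of the fit, n = 2 arrays per group throughout).

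The promoters of these boundary genes are shown because the U266 difference turned between them, with that of ATRN, the short-arm gene that went against its arm in RPMI8226, and that of DDX27, which had the largest RPMI8226 difference. Each sequence is the 250 bases before the gene's start in RefSeq (GRCh38.p14), all 4 on the plus strand, read 5′ to 3′. Capitals mark ACGTG and GCGTG, the core letters bound by hypoxia-inducible factors, or their reverse complements CACGT and CACGC, so that both strands were searched. Neighbouring matches may overlap.
NXT1 (chr20:23350541-23350790): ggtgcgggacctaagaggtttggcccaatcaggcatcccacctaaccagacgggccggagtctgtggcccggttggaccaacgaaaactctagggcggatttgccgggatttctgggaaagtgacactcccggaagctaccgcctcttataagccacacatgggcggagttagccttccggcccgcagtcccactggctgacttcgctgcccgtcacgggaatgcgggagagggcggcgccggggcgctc
TM9SF4 (chr20:32109464-32109713): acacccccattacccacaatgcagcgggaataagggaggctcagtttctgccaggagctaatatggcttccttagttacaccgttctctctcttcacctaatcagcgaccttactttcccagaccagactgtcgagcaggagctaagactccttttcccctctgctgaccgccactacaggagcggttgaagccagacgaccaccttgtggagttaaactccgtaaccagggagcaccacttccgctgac
ATRN (chr20:3470768-3471017): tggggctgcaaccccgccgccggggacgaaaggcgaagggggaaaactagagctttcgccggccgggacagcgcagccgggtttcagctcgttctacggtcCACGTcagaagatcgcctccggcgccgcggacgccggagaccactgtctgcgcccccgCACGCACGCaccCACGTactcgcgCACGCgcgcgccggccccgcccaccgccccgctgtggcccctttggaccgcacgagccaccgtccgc
DDX27 (chr20:49219166-49219415): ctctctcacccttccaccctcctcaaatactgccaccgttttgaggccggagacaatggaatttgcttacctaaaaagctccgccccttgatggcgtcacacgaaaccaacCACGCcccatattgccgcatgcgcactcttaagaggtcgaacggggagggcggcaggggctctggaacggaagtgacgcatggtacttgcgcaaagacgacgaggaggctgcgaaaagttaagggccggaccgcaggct
NXT1 and TM9SF4 had 0 matches in this window, ATRN had 5 and DDX27 had 1. At least 1 match stood in 12 of the 17 short-arm genes with a window (70.6%) and in 19 of the 34 long-arm genes with one (55.9%), where 11638 of 27303 genes in all held one (42.6%). The windows of the listed genes were also richer in G and C, with a median of 68.4% over the 51 genes and 57.6% over all 27303. A match describes letters and is no measure of binding. No window was used for PRNP, GSS, RBM39 and ZNFX1.

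Genes that encode proteins of the endoplasmic reticulum, the Golgi and membrane traffic followed their arm in both lines. The 6 on the short arm had median differences of −0.29 in RPMI8226 and −0.54 in U266, each of the 6 below 0 in both lines. The 10 on the long arm had −0.29 in RPMI8226, each of the 10 below 0, and 0.29 in U266, each above 0. NSFL1C, a cofactor of the VCP ATPase, had the lowest value of the list in U266. It had 9.02 and 8.95 in U266-HR arrays, against 9.80 and 9.71 in parental U266 arrays, a difference of −0.77 ± 0.07. CDS2, which makes CDP-diacylglycerol for phospholipid synthesis, had 9.42 and 9.38 in U266-HR arrays, against 10.15 and 10.05 in parental U266 arrays (−0.70 ± 0.10), but only −0.06 ± 0.10 in RPMI8226. The U266-HR arrays of both genes lay well below the parental ones.

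SEC23B, a coat subunit of the vesicles that leave the endoplasmic reticulum, had the lowest short-arm difference of RPMI8226. It had 10.48 and 10.60 in RPMI8226-HR arrays, against 10.97 and 11.05 in parental RPMI8226 arrays (−0.47 ± 0.06). VAPB, a tether at membrane contact sites of the endoplasmic reticulum, had 7.50 and 7.57 in RPMI8226-HR arrays, against 8.11 and 8.24 in parental RPMI8226 arrays (−0.64 ± 0.09). Neither gene had overlapping arrays in RPMI8226. In U266 SEC23B had a difference of −0.43 ± 0.06, whereas the long-arm gene VAPB had 0.19 ± 0.09. Among the others, ERGIC3, a protein of the compartment between the endoplasmic reticulum and the Golgi, had −0.35 in RPMI8226 and 0.44 in U266, the oxysterol-binding protein gene OSBPL2 −0.35 and 0.42 in the same lines, and SNX5, an endosomal sorting nexin on the short arm, −0.33 and −0.61.

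By sign, the genes of RNA processing, export and translation behaved in the same way, with 2 exceptions in RPMI8226. The 4 on the short arm had medians of −0.32 in RPMI8226 and −0.40 in U266. The 9 on the long arm had −0.31 in RPMI8226, with 7 of 9 below 0, and 0.28 in U266, with 9 of 9 above 0. The exceptions were RALY, an RNA-binding protein of the hnRNP family, and the splicing factor gene RBM39. The short-arm gene MRPS26 was practically unchanged in RPMI8226, at −0.0015 with overlapping arrays. DDX27, an RNA helicase of ribosome assembly, had the largest difference of the list in RPMI8226. It had 7.63 and 7.73 in RPMI8226-HR arrays, against 8.50 and 8.42 in parental RPMI8226 arrays, which is −0.78 ± 0.07 and 0.584 of the parental level. SNRPB2, a protein of the U2 spliceosomal particle, had 10.15 and 10.04 in RPMI8226-HR arrays, against 10.51 and 10.52 in parental RPMI8226 arrays (−0.43 ± 0.08). For both genes the HR arrays lay below the parental arrays. In U266 SNRPB2 had a difference of −0.54 and the long-arm gene DDX27 one of 0.25.

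CSTF1, a subunit of the cleavage stimulation factor that acts in polyadenylation, was among the highest long-arm genes of U266. It had 9.41 and 9.45 in U266-HR arrays, against 8.96 and 8.92 in parental U266 arrays (0.49 ± 0.09). RALY had 10.62 and 10.57 in U266-HR arrays, against 10.13 in both parental U266 arrays (0.47 ± 0.06). Both genes were clearly apart between HR and parental arrays in U266. In RPMI8226 CSTF1 had −0.31, whereas RALY had 10.51 and 10.44 in RPMI8226-HR arrays and 10.42 and 10.41 in parental ones, a difference of 0.06 ± 0.06, about the size of its error, although the arrays did not overlap. The m6A reader gene YTHDF1 had −0.57 in RPMI8226 and 0.28 in U266, and RAE1, which acts in messenger RNA export, −0.46 and 0.24 in the same lines.

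The genes grouped under DNA, chromatin and transcription lie mostly on the long arm of the list. The single short-arm gene, the helicase gene MCM8, had −0.36 in RPMI8226 and −0.30 in U266. The 9 long-arm genes had medians of −0.20 in RPMI8226, with 7 of 9 below 0, and 0.24 in U266, with 9 of 9 above 0. SAMHD1, which breaks down deoxynucleotides, was the highest of the list in U266, with 9.34 in both U266-HR arrays, against 8.90 and 8.77 in parental U266 arrays (0.51 ± 0.09). ZNF217, a zinc finger repressor of transcription, had 7.83 and 8.20 in RPMI8226-HR arrays, against 8.55 and 8.68 in parental RPMI8226 arrays (−0.60 ± 0.10). The HR arrays of ZNF217 differed from each other more than the parental ones did, yet both lay below them. The topoisomerase gene TOP1 had −0.49 in RPMI8226 and 0.24 in U266.

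The signalling, ubiquitin and cytoskeleton genes of the short arm had a median of −0.26 in RPMI8226 and −0.32 in U266 (n = 5 genes), and those of the long arm −0.28 in RPMI8226 and 0.25 in U266 (n = 7 genes). RBBP9, a serine hydrolase that binds the retinoblastoma protein, had 7.40 and 7.43 in U266-HR arrays, against 8.13 and 8.23 in parental U266 arrays (−0.76 ± 0.06). It was 0.589 of the parental level in U266, with no overlap between the groups. MAPRE1, a protein of growing microtubule ends, had −0.53 in RPMI8226 and 0.24 in U266, and CSE1L, the export receptor of importin alpha, −0.29 and 0.43 in the same lines. Among the enzymes, the short-arm genes ITPA, an inosine triphosphatase, and NAA20, a subunit of an N-terminal acetyltransferase, had −0.36 and −0.41 in RPMI8226 and −0.62 and −0.50 in U266. The long-arm gene GSS, glutathione synthetase, had −0.33 in RPMI8226 and 0.26 in U266.

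In RPMI8226, 7 genes had a sign opposite to the median of their arm, and in U266 0 did. On the short arm this was ATRN, the gene of the membrane glycoprotein attractin. ATRN had 8.82 and 8.90 in RPMI8226-HR arrays, against 8.35 and 8.39 in parental RPMI8226 arrays, so both HR arrays were higher, by 0.48 ± 0.06. In U266 it had 7.45 and 7.38 in HR arrays, against 7.62 and 7.55 in parental arrays (−0.17 ± 0.06), on the side of its arm. PRNP, the next listed gene along the arm, had 8.82 and 9.01 in RPMI8226-HR arrays, against 9.18 and 9.17 in parental RPMI8226 arrays (−0.26 ± 0.07). Neighbours on the list thus lay on opposite sides of 0 in RPMI8226.

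On the long arm the opposite signs belonged to RALY, AHCY, RBM39, PLCG1, NCOA5 and ZNFX1, all between 0.01 and 0.12. AHCY, the enzyme that clears S-adenosylhomocysteine, had 9.71 and 9.73 in RPMI8226-HR arrays, against 9.59 and 9.61 in parental RPMI8226 arrays (0.12 ± 0.06). PLCG1, phospholipase C gamma 1, had 7.98 and 8.01 in RPMI8226-HR arrays, against 7.89 and 7.95 in parental RPMI8226 arrays (0.08 ± 0.08). NCOA5, a coregulator of nuclear receptors, had 8.56 and 8.61 in RPMI8226-HR arrays, against 8.54 and 8.40 in parental RPMI8226 arrays (0.12 ± 0.07). HR arrays of AHCY, PLCG1, NCOA5 and RALY lay above the parental arrays, though by little, and those of RBM39 and ZNFX1 overlapped with them. Across both lines, 17 short-arm genes were below 0 in both, 31 long-arm genes were below 0 in RPMI8226 and above 0 in U266, and 6 long-arm genes were above 0 in both.

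**Figure D3:**
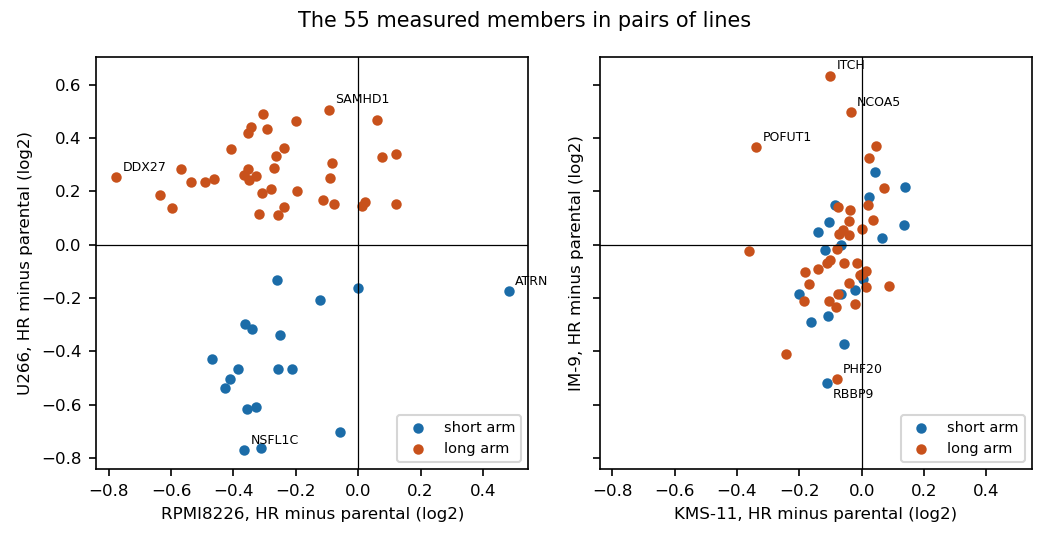
Each point is 1 of the 55 genes, blue for the short and orange for the long arm, with its HR minus parental difference (log2 intensity) in RPMI8226 against U266 on the left and in KMS-11 against IM-9 on the right. On the left the arms part along the U266 axis with no overlap, and ATRN is the only short-arm gene right of 0. On the right the arms lie over each other, and ITCH, NCOA5, POFUT1, PHF20 and RBBP9 are labelled. AHCY, MRPS26 and DIDO1, without labels, lie further from 0 along the IM-9 axis than POFUT1 does.

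The choice of the genes put RPMI8226 and U266 first, and in KMS-11 and IM-9 single genes were tested. In KMS-11, 3 genes fell and 0 rose in limma, all 3 on the long arm (3 of 37), where 5.83% of all tested genes were called lower and 2.44% higher. At an unadjusted p under 0.05, 6 long-arm genes were lower and 0 higher, where 15.3% of all tested genes were lower and 7.77% higher at that limit. PLCG1 had 7.75 in both KMS-11-HR arrays, against 8.08 and 8.14 in parental KMS-11 arrays, and fell by 0.36 ± 0.08 (limma, adjusted p = 0.0116). POFUT1, which adds O-fucose to Notch receptors, had 8.32 and 8.25 in KMS-11-HR arrays, against 8.66 and 8.59 in parental KMS-11 arrays, and fell by 0.34 ± 0.08 (limma, adjusted p = 0.0154). AHCY had 9.35 and 9.31 in KMS-11-HR arrays, against 9.57 in both parental KMS-11 arrays, and fell by 0.24 ± 0.06 (limma, adjusted p = 0.0172). The HR and parental arrays of these 3 genes did not overlap, but each of the 3 calls was lost when any 1 of the 4 KMS-11 arrays was left out. The differences then lay between −0.39, of PLCG1, and −0.22, of AHCY. The AHCY call was also lost after a further quantile normalization, at −0.19 (limma, adjusted p = 0.0606). With only the 4 KMS-11 arrays in the fit it was lost as well (limma, adjusted p = 0.0523).

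The KMS-11 differences of the short arm ran between −0.20, of SNX5, and 0.14, of the actin-severing gene DSTN, and 0 of the 18 passed in limma with an adjusted p under 0.05, while 1 was lower and 1 higher at an unadjusted p under 0.05, against the same 15.3% and 7.77% of all tested genes. SNX5 had 8.59 and 8.68 in KMS-11-HR arrays, against 8.85 and 8.83 in parental KMS-11 arrays, and NXT1 had 7.36 and 7.22 in KMS-11-HR arrays, against 7.46 and 7.45 in parental KMS-11 arrays. DSTN had 7.55 and 7.65 in KMS-11-HR arrays, against 7.33 and 7.58 in parental KMS-11 arrays, and overlapped. HR arrays of SNX5 and NXT1 lay below the parental ones without overlap, as those of 9 short-arm genes did, while those of 3 lay above. On the long arm 19 were separated downward and 3 upward, and 34.4% of all tested genes were separated downward and 24.7% upward in KMS-11. At the step between SRSF6, a splicing factor gene, and YWHAB, a 14-3-3 protein gene, the values were close. SRSF6 had 9.66 and 9.69 in KMS-11-HR arrays, against 9.70 and 9.72 in parental KMS-11 arrays, and YWHAB had 10.81 and 10.87 in KMS-11-HR arrays, against 10.87 and 10.89 in parental ones.

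In IM-9, genes moved both ways on both arms. On the short arm 5 fell and 1 rose, and on the long arm 6 fell and 5 rose, where 21.3% of all tested genes were called lower and 14.4% higher. Without parental IM-9 array 2, and likewise with only the 4 IM-9 arrays in the fit, 2 genes were called lower on each arm. Without IM-9-HR array 1 the fallers numbered 3 and 2, and without IM-9-HR array 2 they numbered 3 and 3. ITCH, a ubiquitin ligase, had 9.76 and 9.73 in IM-9-HR arrays, against 9.10 and 9.13 in parental IM-9 arrays, and rose by 0.63 ± 0.07, which is 1.55-fold (limma, adjusted p = 2.24e-05). NCOA5 had 9.24 and 9.21 in IM-9-HR arrays, against 8.67 and 8.79 in parental IM-9 arrays, and rose by 0.50 ± 0.07 (limma, adjusted p = 0.000155). For both genes the HR arrays lay above the parental arrays with a wide gap. DIDO1, a chromatin reader with a PHD finger, had 8.78 and 8.80 in IM-9-HR arrays, against 8.39 and 8.45 in parental IM-9 arrays, and rose by 0.37 ± 0.07 (limma, adjusted p = 0.0013). POFUT1 had 8.05 and 8.11 in IM-9-HR arrays, against 7.64 and 7.79 in parental IM-9 arrays, and rose by 0.36 ± 0.08 (limma, adjusted p = 0.00228). ATRN and ZNFX1, an antiviral RNA-binding helicase gene, completed the risers, with 0.27 and 0.32.

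Of the genes that fell in IM-9, RBBP9 had 6.93 and 6.90 in IM-9-HR arrays, against 7.44 and 7.43 in parental IM-9 arrays, and fell by 0.52 ± 0.06 (limma, adjusted p = 5.10e-05). PHF20, a methyl-lysine reader of a histone acetyltransferase complex, had 7.65 and 7.70 in IM-9-HR arrays, against 8.09 and 8.26 in parental IM-9 arrays, and fell by 0.50 ± 0.07 (limma, adjusted p = 0.000127). The HR arrays of both were lower without overlap. AHCY had 9.50 and 9.46 in IM-9-HR arrays, against 9.87 and 9.90 in parental IM-9 arrays, and fell by 0.41 ± 0.06 (limma, adjusted p = 0.000102). MRPS26, a protein of the small mitochondrial ribosomal subunit, had 7.85 and 7.80 in IM-9-HR arrays, against 8.23 and 8.17 in parental IM-9 arrays, and fell by 0.37 ± 0.07 (limma, adjusted p = 0.00113). The other 7 called genes fell by less: NXT1, SNRPB2, CTNNBL1, ERGIC3, GSS, CSE1L and SNX5, with differences between −0.29 and −0.19. Of these 7, SNX5 had an adjusted p of 0.0498 in limma, and its call was lost in 20 of the 27 other settings tried, that of CSE1L in 14, those of CTNNBL1 and GSS in 7 each and those of SNRPB2, NXT1 and ERGIC3 in 3 each. The CTNNBL1 and CSE1L calls were each lost when any 1 of the 4 IM-9 arrays was left out.

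SNX5 had 9.64 and 9.73 in IM-9-HR arrays, against 9.78 and 9.96 in parental IM-9 arrays. NXT1 had 7.11 and 7.26 in IM-9-HR arrays, against 7.37 and 7.58 in parental IM-9 arrays. RRBP1, the ribosome-binding protein of the endoplasmic reticulum that precedes SNX5 along the chromosome, had 8.01 and 8.0 in IM-9-HR arrays, against 7.91 and 7.95 in parental IM-9 arrays. HR arrays were thus lower for SNX5 and NXT1 and higher for RRBP1, although RRBP1 with 0.07 ± 0.06 did not pass. In IM-9, 8 short-arm and 18 long-arm genes were separated downward and 6 and 10 upward, where 39.5% of all tested genes were separated downward and 25.6% upward.

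Whether the HR difference itself differed between KMS-11 and IM-9 was tested in the same fit, and 8 of the 55 genes passed, where 17.5% of all tested genes did, 8.88% with a lower and 8.62% with a higher value in KMS-11. The difference of the KMS-11 value minus the IM-9 value was −0.73 ± 0.10 for ITCH, −0.70 ± 0.11 for POFUT1 and −0.53 ± 0.10 for NCOA5, with adjusted p of 0.00033, 0.000693 and 0.00305 in limma. It was 0.41 ± 0.09 for RBBP9 and 0.43 ± 0.10 for PHF20, with adjusted p of 0.00852 and 0.0106 in limma. POFUT1 fell in KMS-11-HR and rose in IM-9-HR cells. DIDO1 with −0.32, MRPS26 with 0.32 and PLCG1 with −0.34 passed at adjusted p between 0.041 and 0.0483 in limma, and these 3 calls were lost in 11 to 17 of the 26 other settings. AHCY fell in both lines, although its KMS-11 call was lost in 6 of the 27 other settings. The difference between the lines for AHCY, 0.17 ± 0.08, did not pass (limma, adjusted p = 0.166).

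The same functional groups were mixed in KMS-11 and IM-9. Their counts in IM-9 stand against 21.3% of all tested genes called lower and 14.4% called higher, and those in KMS-11 against 5.83% and 2.44%. The short-arm genes of RNA processing, export and translation had medians of −0.11 in KMS-11 and −0.28 in IM-9, with 3 of 4 called lower in IM-9, SNRPB2, NXT1 and MRPS26, of which SNRPB2 and NXT1 did not pass with only the 4 IM-9 arrays in the fit. The 10 long-arm genes of membrane traffic had −0.05 in KMS-11 and −0.04 in IM-9, with POFUT1 called in both lines and ERGIC3 in IM-9. Of the 9 long-arm genes grouped under DNA, chromatin and transcription, 3 rose in IM-9 and 1 fell, PHF20, around a median of 0.04. The risers were NCOA5, DIDO1 and ZNFX1, an RNA-binding helicase gene placed in this group. The ZNFX1 call was lost with only the 4 IM-9 arrays in the fit (limma, adjusted p = 0.0527). AHCY and GSS, the 2 long-arm enzymes, both fell in IM-9.

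Set beside the other lines, the levels of the listed genes differed by arm before and after the HR difference. For each gene, the mean of a line was compared with the mean of the other 3 lines under the same condition. The short-arm genes of U266 had a median of −0.58 in HR cells and −0.28 in parental cells by this measure, with 16 and 15 of 18 genes below 0. The long-arm genes of U266 stood at 0.19 in HR cells and −0.13 in parental cells. In RPMI8226 the short-arm genes stood at 0.56 in both HR and parental cells, and the long-arm genes at −0.29 in HR cells and −0.01 in parental cells. Among the listed genes, KMS-11 had the highest long-arm values, 0.37 in HR and 0.42 in parental cells. There 32 and 33 of 37 genes were above 0. Its short-arm values were 0.02 in HR and −0.08 in parental cells. IM-9 had 0.21 in HR and −0.06 in parental cells for the short arm and −0.16 in HR and −0.24 in parental cells for the long arm. The HR value of a line depends also on the HR differences of the other 3. Over all tested genes the medians lay between −0.09 (IM-9-HR) and 0.09 (RPMI8226-HR). Unlisted long-arm genes of RPMI8226 stood at −0.05 in HR and 0.19 in parental cells, and unlisted short-arm genes of parental KMS-11 at −0.28. The unlisted long-arm genes of KMS-11 stood at only 0.10 in HR and 0.11 in parental cells. That was below U266 in HR cells and below RPMI8226 in parental cells, so the top rank of KMS-11 held for the listed genes alone. For the unlisted short-arm genes of IM-9-HR the value was −0.04. In U266 the unlisted genes had the signs of the listed ones, with −0.27 and −0.17 on the short arm and 0.12 and −0.14 on the long arm (HR and parental).

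**Figure D4:**
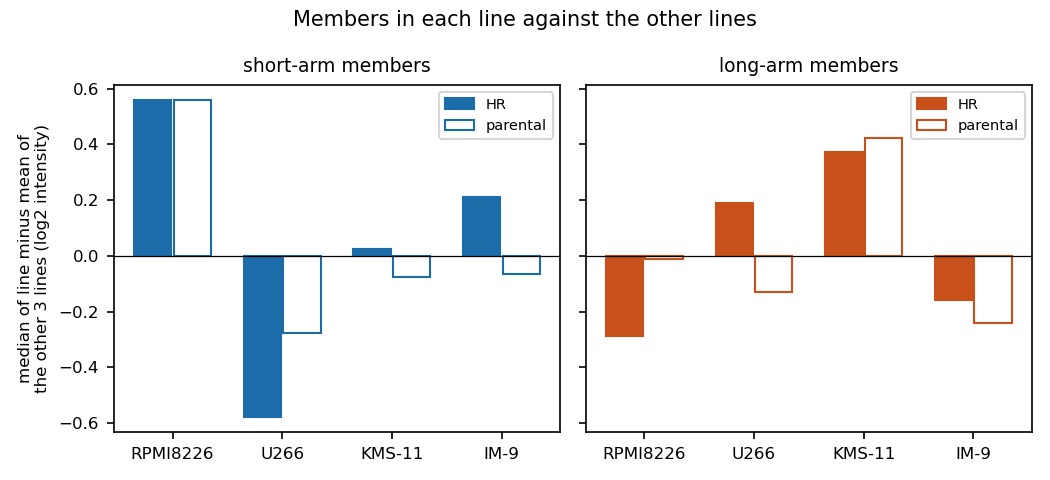
Bars give the median, over the 18 short-arm genes (left) or the 37 long-arm genes (right), of a line's mean log2 intensity minus the mean of the other 3 lines of the same condition. Filled bars are HR and open bars parental cells. U266 lies below 0 for the short arm in both conditions and lies on opposite sides of 0 for the long arm.

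The 301 other tested genes of the chromosome leaned the same way as the listed genes in U266 and RPMI8226, with smaller medians there. In U266 the other short-arm genes, taken by their place up to NXT1, had a median of −0.29 (64 of 79 below 0), the 31 between NXT1 and TM9SF4 had 0.01, and the other long-arm genes had 0.16 (156 of 191 above 0). In RPMI8226 these medians were −0.18, −0.11 and −0.19 in the same order. In KMS-11 they were 0.02, 0.07 and −0.01, and in IM-9 −0.08, −0.03 and −0.07, so the other short-arm genes of KMS-11 had a median of the opposite sign to that of the listed ones, and those of IM-9 a lower one. Some of them had larger differences than any listed gene. CYP24A1, the vitamin D hydroxylase, had −2.79 in RPMI8226, KIF16B, an endosomal kinesin, −1.58 in U266, and SULF2, a heparan sulfate sulfatase, 2.31 in U266. The short-arm genes SMOX and LOC613266 went against their arm in U266, with 1.09 and 1.01. Of the 79 other short-arm genes, 38 were called lower in U266 and 3 higher, where 8.42% and 9.68% of all tested genes were. ACSS2, the acetyl-CoA synthetase of the cytosol and nucleus, had 1.02 in RPMI8226, −0.63 in KMS-11 and −0.93 in IM-9.

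Among 23 chromosomes, the median of the tested genes of chromosome 20 was the second lowest in RPMI8226, at −0.20, after −0.31 for chromosome 13, and chromosome 8 followed with −0.15. It was the highest in U266, at 0.09, where chromosome 20 also had the largest share of genes called higher, 23.6%, and the second largest share called lower, 16.3%, after chromosome 21. In KMS-11 it was −0.01 and in IM-9 −0.07, ranks 20 and 8 counted from the lowest.

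**Figure D5:**
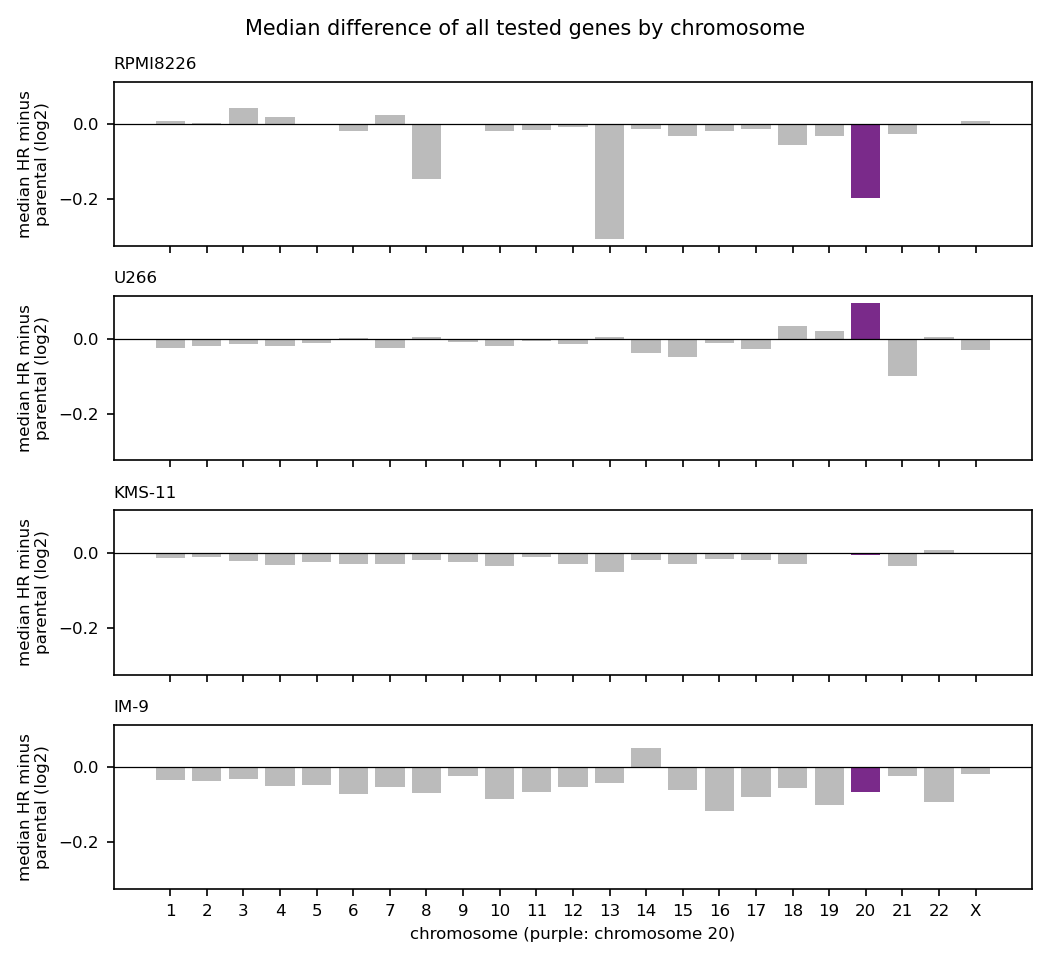
Bars give, for each chromosome, the median HR minus parental difference (log2 intensity) over its tested genes in RPMI8226, U266, KMS-11 and IM-9, with chromosome 20 in purple. In RPMI8226 chromosomes 13, 20 and 8 lie lowest, and in U266 chromosome 20 lies highest.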

How the data were processed

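The authors deposited a table of log2 intensities for 33297 probe sets, 1 value each. Per the submitters' processing notes, version 1.3.0 of Affymetrix Expression Console was used, and the normalization is not given in the sources used here. The design text names another generation of the array than the platform table, whose 21214 identifiers were all found in the deposited table. Of these, 19460 carried 1 symbol and 1754 several, and 12083 probe sets had no entry. The 19460 stood for 18417 genes. Where a gene had more than 1, the probe set of highest mean over all arrays was taken, and genes above 6.27 in at least 2 arrays were tested (12639). Chromosomes and gene order came from RefSeq GRCh38.p14.

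The 16 arrays were fitted as 8 groups sharing 1 spread with limma 3.58.1 in R 4.3.3 (lmFit and eBayes, 2-sided, Benjamini-Hochberg). Tested on simulated data for KMS-11 with 200 of 12639 genes changed, the fit recovered 0 at a log2 size of 0.25, 148 at 0.5 and 198 at 1, with 0, 6 and 10 false calls. In the data 737 genes were called lower and 308 higher in KMS-11, so the adjusted threshold was less strict there. The simulated recoveries therefore do not give the power in these data, where AHCY was called in KMS-11 at −0.24. The members, the functional groups and the marker lists were chosen with earlier results of these data known. Values per array were given, by rule, for the 3 largest differences per arm and line, for genes called in KMS-11 or IM-9 (up to 8 by smallest p), for separated genes of the opposite sign and for genes beside the largest step. CDC25B and other genes at the steps are named for their place. The step was defined as a difference of the medians of 20 genes on each side after the table had been seen. Of the other genes of the chromosome, those with the largest called changes were eligible for naming. Alternatives were another normalization, centring, other probe set and filter rules, other limma settings, a replicate block and leaving out each array. The number of arrays limits the precision, and no detection calls were used.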

Additional observations from a re-analysis of the deposited data

Results flagged for a closer look

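The HR difference differed between KMS-11 and IM-9 for 8 of the 55 genes, by a limma test of the difference itself, which 17.5% of all tested genes passed. Values are given as the KMS-11 value minus the IM-9 value on the log2 scale. It was −0.73 for ITCH, −0.70 for POFUT1, −0.53 for NCOA5, −0.34 for PLCG1 and −0.32 for DIDO1, whose HR differences were lower in KMS-11. It was 0.43 for PHF20, 0.41 for RBBP9 and 0.32 for MRPS26, whose differences were higher in KMS-11. The calls of PLCG1, DIDO1 and MRPS26 were lost in 17, 14 and 11 of the 26 other settings.

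The long-arm median went opposite ways in RPMI8226 and U266. It was −0.28 in RPMI8226, below 0 in all 4 pairs of an HR and a parental array, and 0.25 in U266, above 0 in all 4 pairs. The difference between the lines was not tested, because the genes were listed with these values known.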

How the results depend on the processing

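Each result was recomputed under 26 or 27 other settings, and 0 reversed among those called, while the IM-9 short-arm median lay on either side of 0. The genes named by rule kept their side of the threshold in 957 recomputations and lost it in 115. These totals include the 3 largest differences per arm of RPMI8226 and of U266, whose values were known when the list was drawn up. Those kept their side in every setting, so they say nothing about stability. Settings that left out an array of another line are also counted, and they cannot move the difference of a gene. Centring arrays on their median gave −0.30 for the RPMI8226 long-arm median, −0.44 and 0.28 for the U266 short-arm and long-arm medians, and −0.095 and −0.087 for those of KMS-11. Centring on genes off chromosome 20 gave −0.26 for the RPMI8226 long arm, −0.024 and −0.016 for the KMS-11 arms, 2 short-arm risers and 3 long-arm fallers in IM-9. A further quantile normalization gave −0.45 for the U266 short arm and −0.025 and −0.017 for the KMS-11 arms, and the mean of a gene's probe sets gave −0.45 for the U266 short arm. An intensity trend gave 1 short-arm faller in KMS-11 and 2 short-arm risers in IM-9. Array weights gave 1 short-arm and 5 long-arm fallers in KMS-11 and 3 long-arm fallers in IM-9. Using only the 4 arrays of a line gave 2 fallers on each arm in IM-9, and without the filter 5 genes differed between KMS-11 and IM-9.

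With single arrays left out, the RPMI8226 medians ran between −0.32 and −0.30 (short) and between −0.29 and −0.23 (long), those of U266 between −0.47 and −0.45 and between 0.21 and 0.29, those of KMS-11 between −0.094 and −0.047 and between −0.062 and −0.053, and those of IM-9 between −0.090 and 0.021 and between −0.072 and −0.016. Genes called ran between 9 and 13 (short) and 18 and 25 (long, both lower) in RPMI8226, between 11 and 15 lower and 13 and 25 higher in U266, between 0 and 3 lower on the long arm of KMS-11, and, in IM-9, between 2 and 6 lower on the short arm and between 2 and 7 lower and 4 and 7 higher on the long arm. Between KMS-11 and IM-9, 5 to 8 genes differed. The U266 long-arm count was 13 without either HR array or without parental array 2, and the KMS-11 count was 0 without any 1 of its 4 arrays. In IM-9, short-arm and long-arm fallers numbered 3 and 2 without HR array 1, 3 and 3 without HR array 2, and 2 and 2 without parental array 2. The count between the lines was 5 without KMS-11-HR array 1 or 2, KMS-11 parental array 2, IM-9-HR array 1 or 2, or IM-9 parental array 1. The labels do not tell whether the array numbers pair HR with parental arrays, and the main fit did not pair them. The correlation of same-numbered deviations was 0.20 in RPMI8226, −0.05 in U266, 0.07 in KMS-11 and 0.11 in IM-9. With 2 arrays per group this is 1 value per line, which cannot settle the question. With the replicate block, CSE1L in IM-9 had −0.21 and lost its call, as did PLCG1 and DIDO1 between the lines, and no other named call was lost.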
